A study of Homo sapiens and Mus musculus with 8 samples.

Results

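The 10 genes described here are transcriptional targets of the tumour suppressor p53: Mdm2, Cdkn1a, Plk2, Ccng1, Bbc3, Sesn1, Sesn2, Gadd45a, Btg2 and Trp53inp1. They were found by gene symbol, regardless of letter case, in 5 tables of the authors' own RNA-seq comparisons. Of these 10 genes, 9 had a row in each of the 3 tables of the mouse melanoma line B16N, among 15966 mouse symbols in all, and Sesn2 was not analysed here. In the 2 tables of human melanoma lines, 1 of the 10 symbols, CCNG1, matched 1 of 420 listed genes. The series held 8 samples with 1 sample per group. The B16N groups were an untreated wild-type control labelled day 0, wild-type cells exposed to UV and labelled week 2 or week 5, and a clone overexpressing Orai1 labelled day 0. The clone, 1 clonal line, came from cells transfected with Orai1 tagged with the fluorescent protein CFP, selected with G418 and sorted. Orai1 forms the channel through which Ca2+ enters a cell once its internal Ca2+ stores are emptied. The human groups were untreated WM983 and UACC257 cells (day 0) and the same lines after UV (week 2), all labelled wild type. The labels state no UV dose or wavelength. The control of the clone was the untreated line, so transfection, selection and cloning cannot be told apart from Orai1. Time in culture likewise cannot be told apart from UV.

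p53 is a transcription factor that is stabilised when DNA is damaged, as it is by UV, and then switches on genes that stop the cell cycle, aid repair or start cell death. One of its targets, Mdm2, encodes the ubiquitin ligase that marks p53 for degradation, which closes a negative feedback loop. In melanocytes and melanoma cells p53 takes part in the response to sunlight, and several of its targets also respond to other stress pathways.

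Each value below is a log2 change of a treated B16N sample against the B16N control, positive where the treated sample was higher. The standard error (SE) is the one implied by the deposited test statistic, and a gene was called changed at a Benjamini-Hochberg adjusted p under 0.05 over the whole table. The tables held no counts or levels, so depth per sample is unknown. A test on 1 sample per group compares those samples and not the conditions, and no difference here has a replicate check. The 3 B16N comparisons share their control sample. Whether a change reflects more RNA per cell or more cells of one kind cannot be told apart in bulk samples. All 7 melanocyte markers (Pmel, Mlana, Tyr, Dct, Tyrp1, Mitf, Sox10) had rows in the B16N tables, against at most 3 of 7 myeloid, 1 of 6 fibroblast, 2 of 4 endothelial and 2 of 4 keratinocyte markers in any one table. The melanocyte markers moved too, with 4 of 7 higher at 2 weeks, 5 higher and 1 lower at 5 weeks, and 2 higher and 1 lower in the clone. Tyr, whose enzyme starts melanin synthesis, rose by 0.95 (SE 0.0992) and 1.32 (SE 0.152) at 2 and 5 weeks and stood at 0.12 (SE 0.135) in the clone in the authors' deposited tables. Dct, a further melanin enzyme, rose by 0.72 (SE 0.0814) and 0.85 (SE 0.153) under UV and fell in the clone (-0.61, SE 0.0923) in the authors' deposited tables. Pmel, the pigment granule matrix protein, rose in all 3 of the authors' deposited tables, by 0.70 (SE 0.0751), 0.75 (SE 0.155) and 0.92 (SE 0.0977). Mlana, a melanosomal protein, stood at 0.01 (SE 0.0909) at 2 weeks and rose by 0.53 (SE 0.131) at 5 weeks and 0.50 (SE 0.108) in the clone in the authors' deposited tables. Lyz2, a myeloid marker, stood at 0.38 (SE 0.943) after 2 weeks of UV, and was higher after 5 weeks (3.47, SE 0.696) and in the clone (2.78, SE 0.643) in the authors' deposited tables. The other myeloid markers with rows, Cd68, Tyrobp and Ptprc, shared their values with other symbols and were not called, and Csf1r, Adgre1 and Itgam were not analysed here. The part of these markers in the results below was not tested.

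Of the 9 measured targets, 6 had values of their own. The other 3 carried exactly the values of a second symbol in every B16N table, Btg2 those of Rnf146, Ccng1 those of Cenpn, and Gadd45a those of Bbs4. The human counterparts of each of these 3 pairs lie on different chromosomes in RefSeq (GRCh38.p14). Which gene of a pair was measured could not be told apart, and results of these 3 genes are given as values of the pair. Shared values were common in these tables, affecting 28.9% of 14648 symbols (2 weeks), 29.3% of 14821 (5 weeks) and 29.1% of 15041 (clone). The share was smaller among symbols with an SE of at most 0.5, where these 3 pairs lay. There it was 1410 of 9068, 1322 of 8540 and 1408 of 9116 symbols.

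After 2 weeks of UV the pair Btg2 and Rnf146 was the 1 of 9 that rose. After 5 weeks 3 of 9 rose, namely Mdm2, Plk2 and the pair Gadd45a and Bbs4. In the Orai1 clone 2 of 9 rose, Mdm2 and the pair Btg2 and Rnf146, and no target fell in any of the 3 comparisons. Over the whole tables the percentage of genes called higher was 3.13 at 2 weeks, 3.07 at 5 weeks and 10.3 in the clone, and the percentage called lower was 4.55, 1.71 and 11.6. The targets called higher made up 11.1%, 33.3% and 22.2% of those measured. With values of their own, 0 of 6, 2 of 6 and 1 of 6 targets were called higher. At an unadjusted p under 0.05 there were 2, 4 and 3 of 9 in any direction. The median log2 change of the 9 targets was 0.06, 0.32 and 0.50, beside 0.03, 0.02 and 0.07 over all genes. With the 3 shared symbols left out the median was 0.27, 0.28 and 0.52, so the gap between 2 and 5 weeks in the median of the 9 rests on those symbols. The change was above 0 for 5, 6 and 8 of the 9 targets. The plot of changes by target gives each value with its interval.

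**Figure D1:**
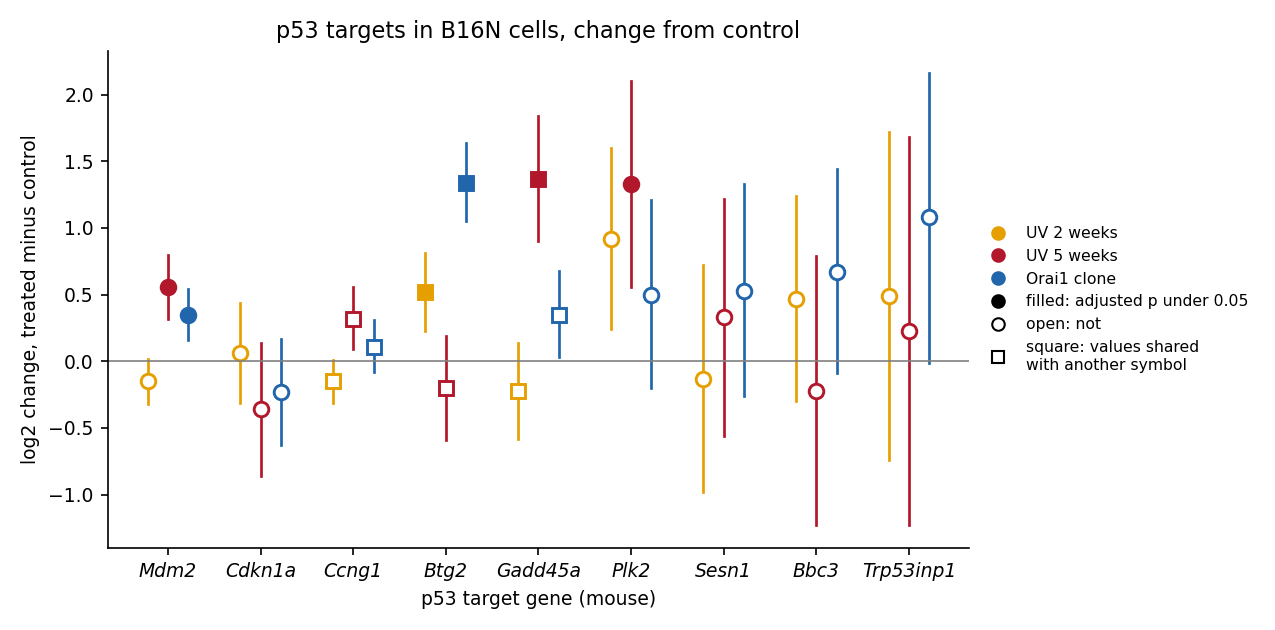
Log2 change of 9 p53 targets against the B16N control (vertical axis) after 2 weeks of UV, 5 weeks of UV and in the Orai1 clone. Points are the authors' values with the sign turned, bars are 95% intervals from the implied SE, filled points have an adjusted p under 0.05 and squares share their values with another symbol. At 2 weeks Mdm2 stands at -0.15 with an interval that spans 0 (-0.32 to 0.02). It lies above 0 at 5 weeks (0.56) and in the clone (0.35). Cdkn1a has intervals that span 0 throughout.

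Mdm2, the feedback regulator of p53, was the target measured with the smallest SE among those with values of their own. Its log2 change in the authors' deposited tables was -0.15 after 2 weeks of UV (SE 0.0885, adjusted p = 0.453), 0.56 after 5 weeks (SE 0.122, adjusted p = 0.000328) and 0.35 in the clone (SE 0.0985, adjusted p = 0.00282). It was thus higher after 5 weeks of UV and in the clone and not called at 2 weeks. The change at 5 weeks corresponds to 1.48-fold and that in the clone to 1.28-fold, so neither passed with a 2-fold minimum. The 2 UV times were compared directly through the difference of their changes, in which the common control cancels. Mdm2 was 0.71 higher on the log2 scale at 5 than at 2 weeks (95% interval 0.42 to 1.01, adjusted p = 0.000339), by a normal test of the difference computed from the authors' deposited changes. By the same test on the authors' changes it was 0.50 higher in the clone than at 2 weeks (0.24 to 0.76, adjusted p = 0.00259). Between the clone and 5 weeks the difference of -0.21 in the authors' changes was not called (-0.52 to 0.10, adjusted p = 0.792).

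Cdkn1a encodes p21, the inhibitor of cyclin-dependent kinases through which p53 arrests the cell cycle. Its change in the authors' deposited tables was 0.06 at 2 weeks (SE 0.192), -0.36 at 5 weeks (SE 0.254) and -0.23 in the clone (SE 0.204), with adjusted p-values of 0.959, 0.669 and 0.546. None of the 3 passed, and their 95% intervals of -0.31 to 0.44, -0.86 to 0.14 and -0.63 to 0.17 did not reach a 2-fold change in either direction. At 5 weeks the values of Cdkn1a and Mdm2 had opposite signs. The differences of Cdkn1a between treated samples were not called either, with values of -0.42 (5 against 2 weeks), -0.29 (clone against 2 weeks) and 0.13 (clone against 5 weeks).

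The pair Ccng1 and Cenpn had the signs of Mdm2. After rounding its value equalled that of Mdm2 at 2 weeks, and it was smaller at 5 weeks and in the clone. Ccng1 encodes cyclin G1, which brings a phosphatase to Mdm2, and Cenpn a centromere protein. The common value in the authors' deposited tables was -0.15 (SE 0.0824) for 2 weeks of UV, 0.32 (SE 0.12) for 5 weeks and 0.11 (SE 0.0979) for the clone, with adjusted p-values of 0.401, 0.113 and 0.523. No single change passed, whereas the difference of 0.47 between the authors' changes at 5 and 2 weeks did (95% interval 0.19 to 0.76, adjusted p = 0.0403). Centring each of the authors' tables on its genes with an SE of at most 0.3 ended that call (difference 0.46, adjusted p = 0.0503).

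Gadd45a encodes a stress protein that binds the cyclin B kinase and the clamp of the replication machinery, and Bbs4 a subunit of the complex that carries proteins to cilia. Their common value was -0.22 at 2 weeks (SE 0.183, adjusted p = 0.734), 1.37 at 5 weeks (SE 0.239, adjusted p = 1.86e-06) and 0.35 in the clone (SE 0.166, adjusted p = 0.123) in the authors' deposited tables. The rise at 5 weeks, 2.58-fold, exceeded the value at 2 weeks by 1.59 (95% interval 1.0 to 2.18, adjusted p = 2.87e-05) in the test on the authors' changes. It also exceeded the value in the clone, with a difference of -1.02 in the authors' changes for clone against 5 weeks (95% interval -1.59 to -0.45, adjusted p = 0.0133).

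The pair Btg2 and Rnf146 had a different order. Btg2 encodes an antiproliferative protein that speeds the shortening of mRNA tails, and Rnf146 a ubiquitin ligase that recognises poly-ADP-ribose. Their value was 0.52 at 2 weeks (SE 0.149, adjusted p = 0.00857), -0.20 at 5 weeks (SE 0.2, adjusted p = 0.884) and 1.34 in the clone (SE 0.15, adjusted p = 2.75e-17) in the authors' deposited tables. The clone, at 2.53-fold over control, lay above both UV samples in the authors' changes, by 0.82 against 2 weeks (adjusted p = 0.0019) and by 1.54 against 5 weeks (adjusted p = 9.8e-08). The difference of -0.72 between 5 and 2 weeks in the authors' changes was not called (adjusted p = 0.0861), but passed with an adjusted p of 0.00712 once an estimate of the variance of the common control was taken off.

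Plk2, a polo-like kinase of centriole duplication and the stress response, had positive values throughout. It stood at 0.92 at 2 weeks (SE 0.346, adjusted p = 0.0864), 1.33 at 5 weeks (SE 0.392, adjusted p = 0.0201) and 0.50 in the clone (SE 0.36, adjusted p = 0.402) in the authors' deposited tables. Only the change at 5 weeks, 2.51-fold, was called, and not at an adjusted p under 0.01. The 3 samples could not be distinguished by this gene, since the differences of 0.41 (5 against 2 weeks), -0.42 (clone against 2 weeks) and -0.83 (clone against 5 weeks) were not called. Their 95% intervals were wide, from -0.61 to 1.44, from -1.39 to 0.56 and from -1.87 to 0.22.

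The remaining targets had larger SEs and none was called. Sesn1 encodes a sestrin, a stress protein that restrains the growth kinase complex mTORC1, and stood at -0.13 (SE 0.434), 0.33 (SE 0.453) and 0.53 (SE 0.405) in the authors' deposited tables at 2 weeks, 5 weeks and in the clone. Bbc3 encodes PUMA, a BH3-only protein that triggers mitochondrial apoptosis. It stood at 0.47 (SE 0.393), -0.22 (SE 0.515) and 0.67 (SE 0.39) in the authors' deposited tables. Trp53inp1, whose nuclear protein promotes p53 activity and autophagy, stood at 0.49 (SE 0.626), 0.23 (SE 0.742) and 1.08 (SE 0.554) in the authors' deposited tables. The adjusted p-values of these 3 genes ranged down to 0.175, that of Trp53inp1 in the clone, where the 95% interval was -0.01 to 2.16. All 3 genes had their highest value in the clone, but none of their differences between treated samples was called. A 2-fold change lay within the interval of Trp53inp1 in each comparison.

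Differences between treated samples were read against the whole tables in the same way. For 5 against 2 weeks of UV, 3 of 9 targets were higher (Mdm2 and the pairs of Ccng1 and Gadd45a) and none was lower, beside 2.05% of 14083 genes higher and 1.28% lower. For the clone against 2 weeks, 2 of 9 were higher (Mdm2 and the pair of Btg2), beside 4.81% of 14105 genes higher and 6.86% lower. For the clone against 5 weeks, the pair of Btg2 was higher and that of Gadd45a lower, beside 1.27% and 4.08% of 14291 genes. Among targets with values of their own, Mdm2 alone differed, in the first 2 of these comparisons. The plot of differences shows the same 9 targets.

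**Figure D2:**
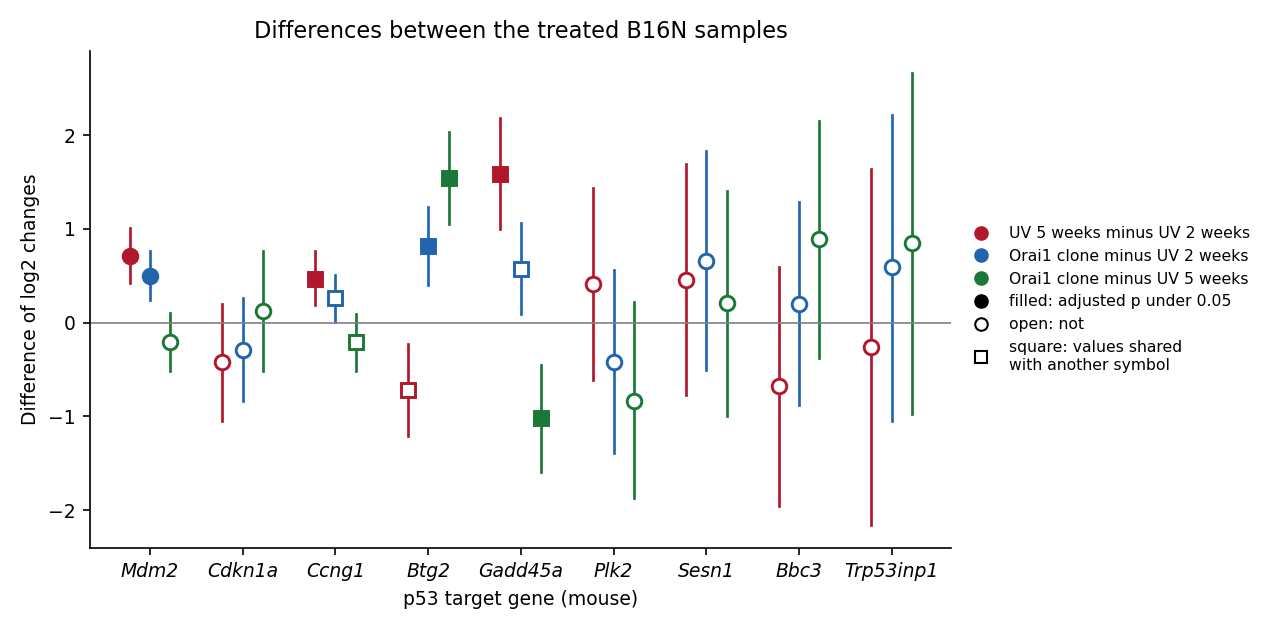
Differences of log2 changes between treated B16N samples (vertical axis) for 9 p53 targets, with 95% intervals from both SEs added in squares; filled points have an adjusted p under 0.05 and squares share their values with another symbol. Mdm2 (0.71) and the pair of Gadd45a (1.59) lie above 0 for 5 against 2 weeks of UV, and the pair of Btg2 (1.54) for the clone against 5 weeks.

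The precision of the tables differed between targets. At 5 weeks 1.77% of genes had a smaller SE than Mdm2, whereas 65.8% had a smaller SE than Trp53inp1. By the size of the change, 79.4% of genes lay below Mdm2 at 5 weeks, and by the test score 99% did. At 5 weeks the pair of Gadd45a lay above 93.2% of genes by change and Plk2 above 92.9%, and in the clone the pair of Btg2 lay above 92.1%. The plot of change against SE sets the 9 targets among all genes.

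**Figure D3:**
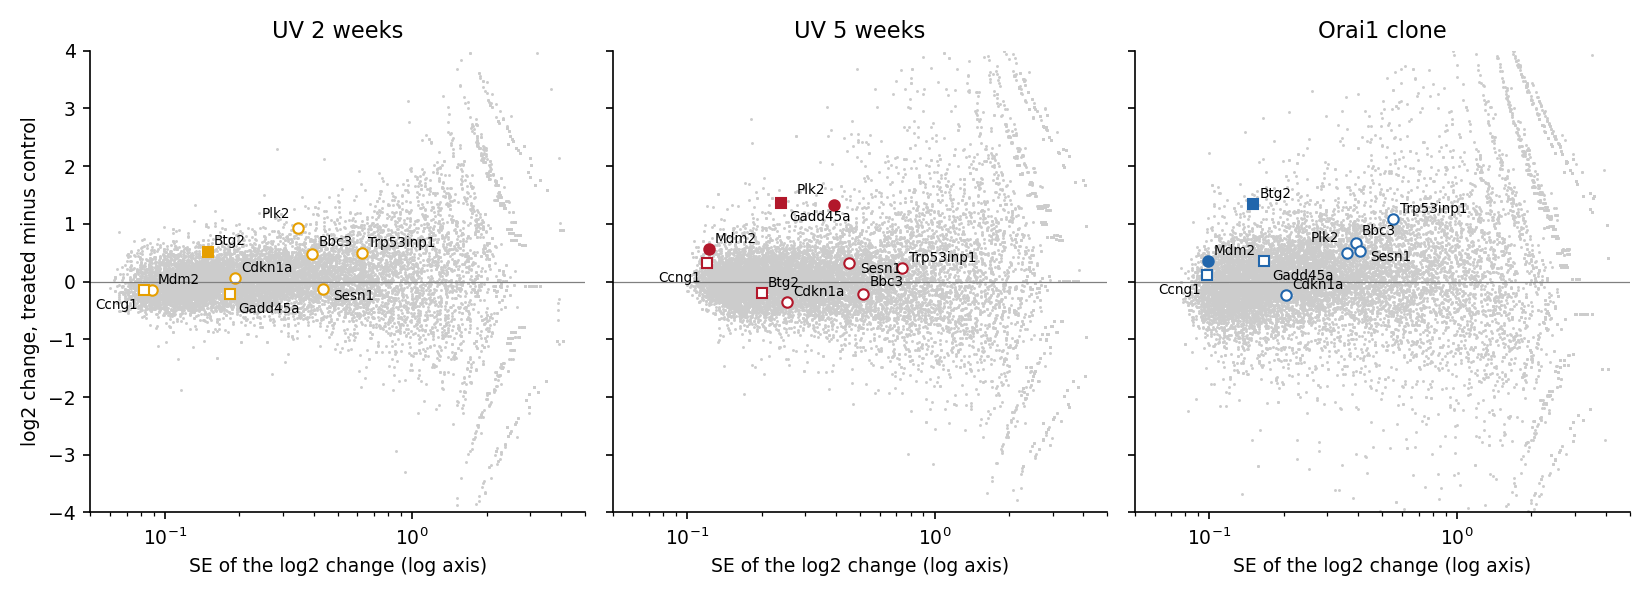
Log2 change against its SE (log axis) for all genes of the 3 B16N comparisons in grey, drawn between changes of -4 and 4, with the 9 p53 targets in colour (filled: adjusted p under 0.05; squares: values shared with another symbol). Mdm2 and Ccng1 sit at the precise left edge with small changes, while Plk2, Bbc3, Sesn1 and Trp53inp1 have larger SEs.

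By the rule for likeness, the 3 genes nearest to Mdm2 over the 3 comparisons were Asah2, Sgpl1 and Slc38a1, among 7168 genes with an SE of at most 0.5 and values of their own in each table. Asah2, a ceramidase gene, stood at -0.15, 0.54 and 0.36 at 2 weeks, 5 weeks and in the clone in the authors' deposited tables, a Euclidean distance of 0.024 from Mdm2. Sgpl1, the sphingosine-1-phosphate lyase gene, stood at -0.16, 0.50 and 0.33, and Slc38a1, an amino acid transporter gene, at -0.17, 0.56 and 0.28. These distances describe 3 values with a common control.

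p53 itself and its regulators were looked at next. Trp53, the gene of p53, fell by 0.55 on the log2 scale at 2 weeks of UV (SE 0.151, adjusted p = 0.00574) and stood at -0.21 at 5 weeks (SE 0.18) and -0.16 in the clone (SE 0.155) in the authors' deposited tables. Mdm4, which binds p53 and blocks its activity, rose by 0.42 at 2 weeks (SE 0.139, adjusted p = 0.0371) and stood at -0.30 (SE 0.17) and -0.11 (SE 0.14) at 5 weeks and in the clone in the authors' deposited tables. Mdm4 was lower at 5 than at 2 weeks by the test on the authors' changes (-0.72, SE 0.22, adjusted p = 0.0349), while Mdm2 was higher. Usp7, a deubiquitinase that acts on both Mdm2 and p53, fell at 2 weeks (-0.34, SE 0.0855) and in the clone (-0.63, SE 0.0941, adjusted p = 9.58e-10), and stood at -0.45 at 5 weeks (SE 0.153, adjusted p = 0.0652), in the authors' deposited tables. Its differences between treated samples were not called. Rchy1, a further ubiquitin ligase for p53, and Trp53bp1, a DNA damage protein that binds p53, fell in the clone (-0.50, SE 0.14, and -0.47, SE 0.133) in the authors' deposited table. Of 14 measured genes on this list of p53, its relatives and its regulators, 1 rose and 2 fell at 2 weeks. None passed at 5 weeks and 3 fell in the clone. Over all genes, 3.13% and 4.55% were called higher and lower at 2 weeks, and 3.07% and 1.71% at 5 weeks. In the clone these were 10.3% and 11.6%. The medians of this list were -0.20, -0.21 and -0.26.

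Other p53 targets were counted beside the same whole-table percentages. Among targets of arrest, repair and metabolism, 1 of 21 rose and 1 fell at 2 weeks, 2 of 22 rose and 1 fell at 5 weeks, and 6 of 21 rose and 2 fell in the clone. The percentage of all genes higher and lower was 3.13 and 4.55, 3.07 and 1.71, and 10.3 and 11.6 in these comparisons. With values of their own, 0 of 15 passed at 2 weeks, 1 of 15 rose and 1 fell at 5 weeks, and 2 of 14 rose and 2 fell in the clone. In the authors' deposited table for 5 weeks Gdf15, a stress cytokine gene, rose by 2.13 (SE 0.694, adjusted p = 0.0462). Gpx1, a glutathione peroxidase gene, was lower at 5 weeks (-1.0, SE 0.135, adjusted p = 3.83e-11) and in the clone (-0.54, SE 0.0998) in the authors' deposited tables. In the clone, Xpc, the damage sensor of nucleotide excision repair, rose by 0.70 (SE 0.171, adjusted p = 0.000442), and the receptor gene Notch1 by 3.11 (SE 0.584), while the growth factor gene Tgfa was lower (-2.41, SE 0.726), in the authors' deposited table. The medians were 0.01, 0.18 and 0.00.

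Among targets that act in cell death, 0 of 12 passed at 2 weeks, 1 fell at 5 weeks and 1 rose and 2 fell in the clone. Over all genes, 3.13% and 4.55% were called higher and lower at 2 weeks, and 3.07% and 1.71% at 5 weeks. In the clone these were 10.3% and 11.6%. The target that fell at 5 weeks, Bid, carried the values of Bbs2. Of the cell death targets with values of their own, 0 of 10 passed at 5 weeks, and 1 of 9 rose and 1 fell in the clone. Bax, which opens the outer mitochondrial membrane in apoptosis, rose by 0.56 in the clone (SE 0.161, adjusted p = 0.00388) and stood at 0.36 (SE 0.145) and 0.45 (SE 0.166) at 2 and 5 weeks in the authors' deposited tables. Eda2r, a death receptor gene, fell in the clone (-4.34, SE 0.51, adjusted p = 1.23e-15), and stood at 0.06 (SE 0.248) and 0.30 (SE 0.396) at 2 and 5 weeks in the authors' deposited tables. The clone lay below both UV samples for Eda2r in the authors' changes, by -4.40 and -4.64 (adjusted p = 1.24e-12 and 1.51e-10). The fall of Eda2r was the largest change by size in the 3 comparisons among genes with an SE of at most 1 on the lists of p53, its targets, their relatives and the cell cycle genes.

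Relatives of the targets were counted next. Gadd45b, the paralogue of Gadd45a, fell at 5 weeks (-1.13, SE 0.234, adjusted p = 0.000128) and in the clone (-0.83, SE 0.185) in the authors' deposited tables. At 5 weeks a rise of the pair of Gadd45a and a fall of Gadd45b stood side by side. In the authors' deposited table for the clone Cdkn1b, which encodes the related inhibitor p27, fell (-0.45, SE 0.106, adjusted p = 0.000208). Sesn3 stood at -0.49, -0.62 and -0.11, and was not called. Of 11 measured relatives, 1 rose at 2 weeks, 1 fell at 5 weeks and 2 fell in the clone, beside 3.13% of all genes higher at 2 weeks and 1.71% and 11.6% lower at 5 weeks and in the clone. The relative that rose at 2 weeks, Trp53inp2, carried the values of Pgam1.

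Among cell cycle genes that p53 lowers through p21 and the DREAM repressor complex, 1 of 19 rose at 2 weeks of UV and none passed at 5 weeks, at medians of 0.09 and 0.00. The gene that rose, Birc5, carried the values of Ubtd1, and 0 of 15 with values of their own were called at 2 weeks. Over all genes, 3.13% and 4.55% were called higher and lower at 2 weeks, and 3.07% and 1.71% at 5 weeks. In the clone 4 of 19 rose and 1 fell, beside 10.3% of all genes higher and 11.6% lower. Cdc20 (0.62, SE 0.204) and Mcm2 (0.48, SE 0.142), of mitotic exit and replication licensing, rose, and cyclin B1 gene Ccnb1 fell (-0.45, SE 0.11), in the authors' deposited table.

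Stress genes driven mainly by factors other than p53 were set beside the targets. Of 13 such genes, 9 rose and none fell at 5 weeks, against 1 that rose and 4 that fell at 2 weeks and 4 that rose and 5 that fell in the clone, beside the same percentages of all genes. Among the 9 with values of their own, 6 rose and none fell at 5 weeks. At 2 weeks 1 of these rose and 3 fell, and in the clone 4 rose and 3 fell. Atf4, the transcription factor of the integrated stress response, was called in all 3 of the authors' deposited tables, with -0.28 (SE 0.0951) for 2 weeks, 0.78 (SE 0.147) for 5 weeks and -0.32 (SE 0.111) for the clone. Trib3, a target of Atf4, stood at -0.66, 2.41 and -2.11, and Fos, an immediate early gene, at 1.46, -0.43 and 1.96. The largest passing changes with an SE of at most 1 also included Slc7a11 (-0.71 at 2 weeks and 2.82 at 5 weeks), Hmox1 (2.56 at 5 weeks) and Nqo1 (4.57 in the clone) in the authors' deposited tables. Hmox1 was also called higher in the clone (0.59, SE 0.2). Nqo1 was also called higher at 5 weeks (6.24), with an SE of 1.37 that is above this limit. The difference of Atf4 between 5 and 2 weeks in the authors' changes was 1.06 (adjusted p = 6.5e-07 by the normal test of the difference). Atf4 and the pair of Gadd45a were thus both higher at 5 weeks. The pair of Btg2 and Fos were both called higher at 2 weeks and in the clone. On the same list, Jun stood at 0.15 (SE 0.091) at 2 weeks and was called lower in the clone (-0.51, SE 0.111). Egr1 was not called at 2 weeks (0.27, SE 1.84) or in the clone (-1.98, SE 1.42). Whether these genes bear on the p53 targets was not tested.

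**Figure D4:**
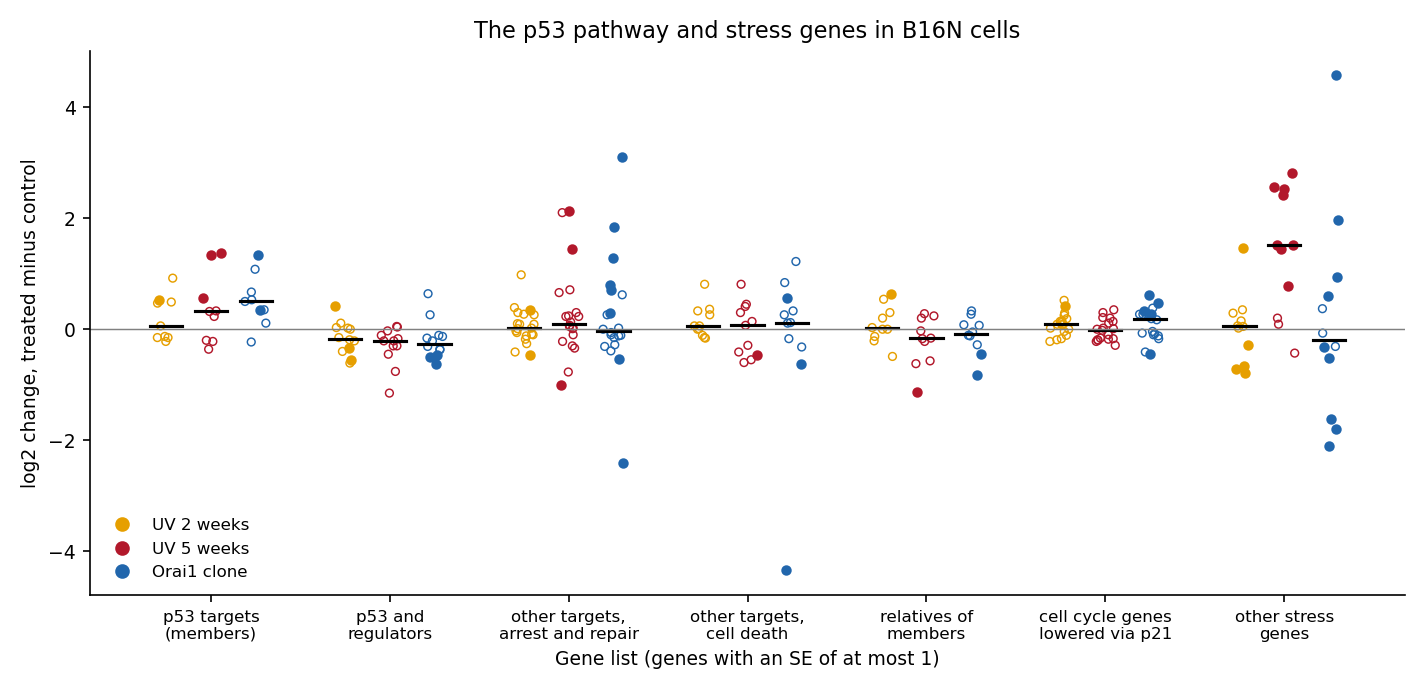
Log2 change (vertical axis) of the 9 p53 targets and of 6 further gene lists in the 3 B16N comparisons, for genes with an SE of at most 1; filled points have an adjusted p under 0.05 and black lines are medians of the points drawn. The 9 targets lie between -0.36 and 1.37, and the other stress genes at 5 weeks of UV have a median of 1.51.

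CCNG1 was the target with values in human cells. Both human tables listed the same 420 symbols, and 419 of them had an absolute log2 change of at least 1 in WM983, so the listed genes were in effect those that changed in WM983. Its WM983 value is therefore a description with no test. The direction of the human values was not given in the sources used here, and signs are as deposited. CCNG1 stood at 1.42 in WM983 (deposited p = 5e-05, the smallest in the table, given to 351 rows) and at -0.17 in UACC257 (deposited p = 0.226) in the authors' deposited tables. By size its WM983 value was number 119 of 420, and the median absolute change was 1.22 in WM983 and 0.19 in UACC257. The share of listed genes with an adjusted p under 0.05 was 99.5% in WM983 and 0% in UACC257, where 42 genes had an unadjusted p under 0.05. CCNG1 thus had opposite signs in the 2 lines, and the difference was not tested. The deposited p of CCNG1 was not the normal p of its score in either line (5.29e-09 in WM983 and 0.49 in UACC257 from the authors' scores), so no SE was taken from the score as in B16N. Among other p53 targets, GDF15 stood at -1.51 in WM983 and 0.27 in UACC257, and BCL2L11 at 1.03 and -0.25, in the authors' deposited tables. TP53I3, a p53-inducible gene that was not on the lists used here, stood at -1.27 and 0.22.

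**Figure D5:**
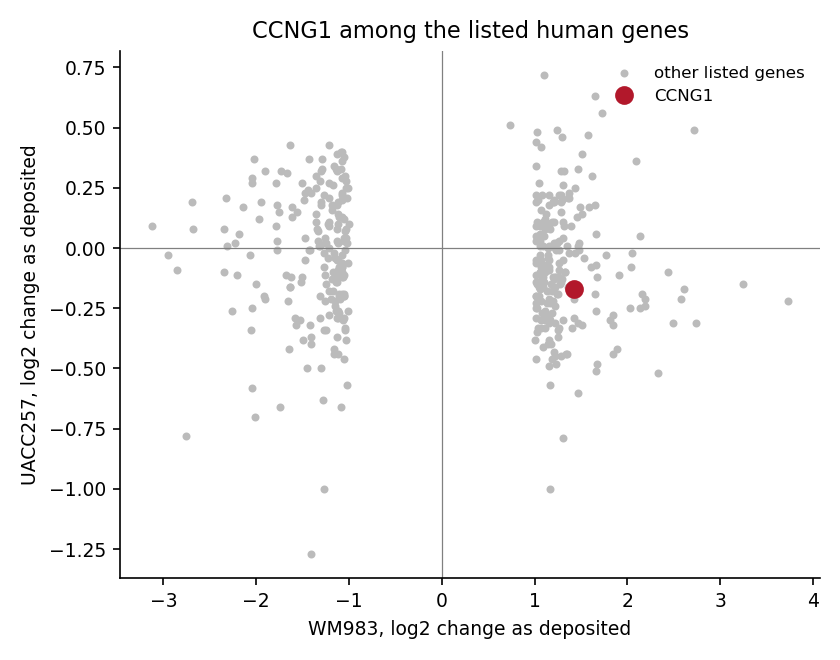
Log2 changes as deposited in WM983 (horizontal axis) and UACC257 (vertical axis) for 420 listed genes, with CCNG1 in red. The gap around 0 on the horizontal axis comes from the listing of genes that changed in WM983, and CCNG1 lies at 1.42 and -0.17.

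As CCNG1 was the one target with values in human lines, its promoter is shown. The 250 bases before the RefSeq gene start, chr5:163437321-163437570 on the plus strand of GRCh38.p14, were searched for the p53 response element, which consists of a pair of 10-base repeats. Up to 13 bases between the repeats and up to 2 mismatches over the 20 positions were allowed, and the consensus reads the same on both strands. The match in CCNG1 has 2 mismatches, the most allowed, as each repeat has A in place of the C of the consensus. Capitals mark the matching repeats.
CCNG1: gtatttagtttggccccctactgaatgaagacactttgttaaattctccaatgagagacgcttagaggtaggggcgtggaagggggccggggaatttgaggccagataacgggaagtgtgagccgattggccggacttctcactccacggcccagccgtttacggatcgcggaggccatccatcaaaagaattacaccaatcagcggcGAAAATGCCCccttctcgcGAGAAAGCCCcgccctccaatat

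The match began 42 bases before the gene start. Matches of this kind were found in 7.82% of 35116 RefSeq windows of 250 bases before and 50 after a gene start, and 9.53% of 27305 genes had at least 1. Of 8 p53 targets whose human windows were counted here, 3 had a match, CCNG1, MDM2 and SESN1. The matches lay in 5 of the 14 windows of these 8 genes, some of which overlap. Windows of TP53INP1 and GADD45A were not part of this count, and 3 of 8 was not tested against the percentage of all genes. In MDM2 the match lay at chr12:68808923-68808942 on the plus strand, near the internal promoter of MDM2 that is known to respond to p53, with no bases between the repeats. In SESN1 it lay at chr6:109095058-109095088 on the minus strand with 11 bases between the repeats. These matches also have 2 mismatches each, but in MDM2 both repeats keep the C that those of CCNG1 lack. Both are shown beside CCNG1 to let the repeats be compared.
MDM2: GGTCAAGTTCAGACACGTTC
SESN1: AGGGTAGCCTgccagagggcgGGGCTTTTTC

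A match is a likeness of letters and not a binding site, and these human windows say nothing of the mouse promoters, which were not used here.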

How the data were processed

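Per the labels, 8 samples gave RNA-seq comparisons. The authors deposited tables of log2 fold changes, a test statistic taken here as a score, and p-values. GRCm38 was the build in the submitters' processing notes. The aligner, the counter, the test and the human build are not given in the sources used here. Human UV titles read UV3 and the time label week 2, which was used.

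The sign of the B16N changes was turned. A gene without control reads should be higher in the treated sample, and all 1357 genes with a row in 1 B16N table had negative deposited values, as had 1342 of 1348 values of genes with rows in 2 tables. The deposited p-value equals the two-sided normal p of the score (largest gap 5e-08), so log2 fold change over score gave the SE. Benjamini-Hochberg adjustment ran over 14648, 14821 and 15041 rows. Rows with no symbol (1 per table) and 3 clone rows with no p-value were left out. Differences of changes were tested with both SEs added in squares, which counts the spread of the control in both, and adjusted over genes in both tables. The human adjustment covered 420 listed rows. The procedures were tested on simulated data, with normal noise drawn from the implied SEs separately for each comparison. Those data held no common control and no spread between samples of a condition, so neither was covered.

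Members and lists were chosen with earlier results of these data known. Named genes were all members, Trp53 and Mdm4, up to 3 genes per list and comparison with the largest passing change (values of their own, SE at most 1), and 3 genes nearest Mdm2. Sesn3, Atf4, Jun, Egr1 and the human genes were named after their values were seen, as were values of named genes in other comparisons. Calculations ran in Python 3.11.15 (scipy 1.17.1, pandas 2.3.3, numpy 2.4.6), and plots in matplotlib 3.10.9. Alternatives were other thresholds, a fold minimum, centring, an SE filter, shared symbols left out and removal of control variance, taken as 0.5 times the smaller squared SE and removed from both changes.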

Additional observations from a re-analysis of the deposited data

Results flagged for a closer look

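The change of 3 p53 targets differed between the 2 UV times in B16N by a normal test of the difference. Mdm2 was higher at 5 than at 2 weeks by 0.71 on the log2 scale, the pair of Ccng1 and Cenpn by 0.47, and the pair of Gadd45a and Bbs4 by 1.59, with adjusted p-values of 0.000339, 0.0403 and 2.87e-05. In all 3 the 2-week value was below 0 and the 5-week value above it. None of the 2-week values was called, and their 95% intervals all spanned 0. At 5 weeks Mdm2 and the pair of Gadd45a were called higher against the control. The pair of Ccng1 was called only in the difference between the 2 UV times. The call of the pair of Ccng1 was lost with centring (adjusted p = 0.0503 from the authors' changes). Which gene of the 2 pairs was measured cannot be told apart, so Mdm2 was 1 of 6 targets with values of their own that differed. Each time point is 1 sample.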

How the results depend on the processing

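Of 149 alternative values of single changes 142 kept their call, as did 115 of 121 differences. A gene called under neither setting counts here as kept. Only centring alters the values themselves, by taking off medians of -0.023, -0.01 and -0.019 (2 weeks, 5 weeks, clone). The other settings could therefore not change a sign. Genes called went from 1124, 708 and 3305 (2 weeks, 5 weeks, clone) to 51, 269 and 1021 with a 2-fold minimum. At 2 and 5 weeks they were 735 and 430 at an adjusted p under 0.01, and 2308 and 1974 at an unadjusted p under 0.05. Targets called at 2 weeks went from 1 to 0 with a 2-fold minimum or shared symbols left out, and to 2 at the unadjusted p. Those in the clone went from 2 to 1 with either of the first 2 settings. Leaving out shared symbols left 1 target differing between 5 and 2 weeks (from 3), 1 between clone and 2 weeks (from 2) and 0 between clone and 5 weeks (from 2). Taking off control variance raised the genes that differed from 469 to 1096, from 1646 to 2864 and from 764 to 1448, and the targets differing between clone and 2 weeks to 4. An adjusted p under 0.01 gave 257 genes for 5 against 2 weeks, and 494 genes and 1 target for clone against 5 weeks. The median change of the targets at 2 weeks was 0.06, 0.27 with shared symbols left out and -0.03 with an SE of at most 0.5. No paired analysis was possible because each group holds 1 sample. No replicate could be left out for that reason.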

Other observations

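Several further p53 targets carried the values of a second symbol and showed some of the larger values on these lists. The pair Ephx1 and Hspb1, an epoxide hydrolase and a small heat shock protein gene, stood at 0.39 (SE 0.146) at 2 weeks of UV and was higher at 5 weeks (1.44, SE 0.191) and in the clone (1.28, SE 0.126) in the authors' deposited tables. The pair Phlda3 and Olfr1339 was higher at 2 weeks (0.34, SE 0.0801) and in the clone (0.79, SE 0.105), with -0.30 (SE 0.134) at 5 weeks, in the authors' deposited tables. Phlda3 encodes a p53-induced inhibitor of the kinase Akt. The pair Zmat3 and Angpt2 was lower at 2 weeks (-0.47, SE 0.0897) and higher in the clone (0.30, SE 0.105) in the authors' deposited tables. The pair Bid and Bbs2 was lower at 5 weeks (-0.47, SE 0.152) and in the clone (-0.63, SE 0.107) in the authors' deposited tables. The order of the pair Phlda3 and Olfr1339 over the 3 samples was that of the pair Btg2 and Rnf146. These genes were singled out after their values were seen.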
